A study of Mus musculus with 12 samples.

Results

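The mitochondrial ribosomal proteins were followed in mouse liver through the early hours of concanavalin A (ConA) hepatitis. Members were the genes of probe sets whose only platform symbol begins with Mrpl or Mrps and a number. There were 76 such genes among 18193 genes measured, carried by 156 of 45037 probe sets. By symbol, 47 of the 76 genes are named for the large subunit (Mrpl) and 29 for the small subunit (Mrps). The symbol does not always give the place of the protein, as for Mrps36 below. Of the 76 genes, 34 had 1 probe set while 42 had several. Each gene was read from its probe set with the highest mean over the 12 arrays. Mrpl30 and Mrpl53 had no probe set of their own and were left out, and Mrps34 also had a probe set shared with Nme3, which was not used.

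Mitochondrial ribosomes translate the few proteins encoded by mitochondrial DNA, all of them membrane subunits of the respiratory chain and ATP synthase. Every protein of the mitochondrial ribosome is encoded in the nucleus and imported, so its assembly depends on many separate nuclear genes besides the ribosomal RNA made in the organelle. Some of these proteins have counterparts in bacterial ribosomes and others are found only in mitochondria. Hepatocytes are rich in mitochondria, whose respiratory chain supplies the ATP for gluconeogenesis, urea synthesis and the making of plasma proteins.

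The arrays held whole-liver RNA of male Balb/c mice aged 8 to 10 weeks, in 4 groups of 3. The control group was taken at 0 h, and the other groups 1 h, 3 h or 6 h after a tail vein dose of 20 mg/kg of ConA, a lectin that activates T cells. The labels call the 0 h mice untreated, whereas the methods speak of PBS, and without controls at the later times an effect of ConA and one of time of day cannot be told apart. Nothing in the labels links arrays of different groups, and the p-values measure the spread between mice within the groups.

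The deposited values were linear signals whose median over an array ran from 13.7 to 20.4, with all 3 arrays at 3 h below every other array. This difference in overall brightness bears on every member, so the counts of members that passed the test are given as deposited and after 2 rescalings. Median scaling multiplied each array so that all medians were equal, and quantile normalization gave all arrays the same distribution of signals. As deposited, the median log2 change of all genes was 0.08 at 1 h, -0.21 at 3 h and 0.02 at 6 h against 0 h. Summed signals of the 8 measured hepatocyte markers, among them Alb and Apoa1, were high in every group and ran from 63048 to 74569 over the 12 arrays. The sum hides that group means of single markers moved in both directions between 0 h and 6 h. Fgb went from 7298 to 12349 and Hnf4a from 2287 to 3791, whereas Cps1 went from 8628 to 7524 and Tat from 4056 to 3799. Summed signals of 7 neutrophil markers rose from 83.4 to 129 at 0 h up to 1634 to 2557 at 6 h, where 7 of 7 passed the test. Of the T cell markers 3 of 6 were higher at 6 h (51.7 to 68.5 in sum at 0 h and 114 to 157 at 6 h), and of the B cell markers 0 of 4. Of the Kupffer cell markers 2 of 6 were lower at 6 h and 1, Marco, was higher, of those of sinusoidal endothelial cells 3 of 7 were lower and 1, Lyve1, was higher, and of those of hepatic stellate cells 4 of 7 were lower and 0 higher. Their part in the members' values was not tested, and in whole liver fewer cells of a type and less RNA per cell cannot be told apart. All 76 members were above the floor of the table on every array, and all had a mean above that of the median gene, the dimmest, Mrpl54, lying at percentile 67.4.

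At 6 h against 0 h, 18 of the 76 members had fallen and 6 had risen, while 52 did not pass the test (limma, Benjamini-Hochberg adjusted p under 0.05 over all 18193 genes). The 18 falls make 23.7% of the members, against 12.7% of all genes tested that were lower, and the 6 rises make 7.89%, against 15.4% of all genes that were higher. Since bright probe sets pass the test more often, the same shares among the 9096 genes brighter than the median are also given, and they were 21.2% lower and 25.2% higher. The median change of the members was -0.13 on the log2 scale, against 0.02 for all genes and 0.04 for the brighter genes. All 3 arrays at 6 h were below the 3 controls for 28 members and above them for 11, beside 18.5% and 22.1% of all genes. Median scaling gave 39 below and 4 above (23.8% and 17.9% of all genes), and quantile normalization 37 and 8 (23.3% and 19%). For this overlap of arrays the shares of the brighter genes are not given, so an excess of members below can be overstated. All 18 falls also passed the test after median scaling and after quantile normalization, whereas 4 of the 6 rises did so. Rescaling raised the number of members lower to 29 with either method (17.8% of all genes with median scaling, 17.7% with quantile normalization). It left 4 higher with median scaling (12.8% of all genes) and 7 with quantile normalization (14.2%). These rescaled shares are of all genes, which can overstate the excess of members lower. Those of the brighter genes are in the plot of shares past the test.

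The fall was deepest for Mrpl12, the protein of the flexible stalk to which translation factors bind, and which has also been described as a partner of the mitochondrial RNA polymerase. Its signal was 1024, 1028 and 961 in the controls, 1367, 1050.4 and 1008 after 1 h, 873, 755 and 748 after 3 h, and 461, 444 and 379 after 6 h. The 6 h arrays lay far below all others, and the 3 h arrays lay between them and the controls. The change at 6 h was -1.24 (SE 0.13, adjusted p = 0.00015), a 2.35-fold lower signal. It was -1.37 after median scaling and -1.33 after quantile normalization.

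Mrpl49, a large subunit protein found only in mitochondria, came next. Its signal was 190.3, 235 and 181 in the controls, 308, 236 and 205 after 1 h, 132, 154 and 160.2 after 3 h, and 86.5, 113 and 73.9 after 6 h. All 6 h arrays were below all 3 h arrays, and all 3 h arrays below all controls. The change at 6 h was -1.16 (SE 0.20, adjusted p = 0.0019), or 2.24-fold lower. A second probe set of Mrpl49 gave -0.74 (SE 0.08, adjusted p = 0.0003 over all probe sets), the same direction with a smaller size.

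Mrpl34, a short protein of the large subunit with a bacterial counterpart, had signals of 275, 324 and 321 in the controls, 426, 302 and 351 after 1 h, 269.5, 259 and 221 after 3 h, and 196, 147 and 169 after 6 h. The 6 h arrays were again the lowest and did not overlap the other groups. The change at 6 h was -0.85 (SE 0.16, adjusted p = 0.0029). A far dimmer second probe set gave -0.61 (SE 0.67) and did not pass the test.

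Mrps36 was named as a small subunit protein but is now regarded as a subunit of the 2-oxoglutarate dehydrogenase complex of the citric acid cycle. Its signals were 275, 314 and 274 in the controls, 299, 259 and 258 after 1 h, 205, 189.6 and 199 after 3 h, and 176, 175 and 179.5 after 6 h. The 3 h and 6 h arrays were below every 0 h and 1 h array, and the values within each of these later groups lay close together. The changes were -0.54 at 3 h (SE 0.09, adjusted p = 0.0033) and -0.70 at 6 h (SE 0.09, adjusted p = 0.0004).

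Among the other members that fell at 6 h were Mrps16 (-0.59), a small subunit protein with a bacterial counterpart, Mrps35 (-0.58), Mrpl55 (-0.57) and Mrpl42 (-0.55). Mrpl18, which in bacteria binds the 5S ribosomal RNA, fell by 0.53 on the log2 scale. The remaining falls at 6 h were those of Mrps24, Mrpl15, Mrps17, Mrps5, Mrpl40, Mrpl39, Mrps27, Mrpl28 and Mrpl48, with changes between -0.53 and -0.33. Mrpl39, whose probe set was the brightest of the members, gave 1605, 1529.7 and 1368 at 0 h and 1018, 1158 and 1136 at 6 h, so the groups did not overlap. Its change was -0.44 (SE 0.10, adjusted p = 0.0087). The probe sets of Mrpl15, Mrpl28 and Mrpl48 are of a type that can take up related transcripts, so their values are less certain. Those of Mrps24 and, named below, Mrps12 and Mrpl9 are of a type shared between transcripts.

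The largest rise at 6 h was that of Mrps18b, 1 of 3 mammalian versions of the bacterial small subunit protein S18. Its signals were 582, 570.3 and 575 in the controls, 666, 658 and 540.4 after 1 h, 584, 515 and 528 after 3 h, and 949, 939 and 959 after 6 h. The 3 arrays at 6 h lay close together and above every other array. The change was 0.72 (SE 0.09, adjusted p = 0.00047), a 1.65-fold higher signal, and it was 0.59 after median scaling and 0.68 after quantile normalization. The other versions, Mrps18a and Mrps18c, had changes of -0.08 and -0.14 that did not pass the test, and the difference between the versions was not tested.

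Mrpl3, a core protein of the large subunit near the peptidyl transferase centre, had signals of 279.8, 286 and 264 in the controls, 343, 310.2 and 264 after 1 h, 307, 278 and 344 after 3 h, and 450.1, 447 and 369 after 6 h. Only the 6 h arrays were clear of the controls. The change at 6 h was 0.60 (SE 0.13, adjusted p = 0.0064), with 3 other probe sets at 0.54, 0.37 and -0.03, none past the test.

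Mrps23, a small subunit protein that bacteria lack, had signals of 138, 123 and 124 in the controls, 219, 172 and 157 after 1 h, 125, 96.1 and 106 after 3 h, and 175, 198 and 184 after 6 h. Its arrays were above the controls at 1 h, overlapped them at 3 h and were above them again at 6 h. The change at 6 h was 0.53 (SE 0.14, adjusted p = 0.020) as deposited and 0.39 after median scaling.

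Mrpl38, which bacteria lack, gave 442, 404 and 386 at 0 h and 581, 635 and 488 at 6 h without overlap. Its change was 0.46 (SE 0.12, adjusted p = 0.015), and 1 of its 2 other probe sets also passed the test (0.85, adjusted p = 0.029 over all probe sets). The probe set that was read is of a type shared between transcripts. The 2 remaining rises, those of Mrpl17 (0.42, adjusted p = 0.031) and Mrpl16 (0.33, adjusted p = 0.023), both large subunit proteins with bacterial counterparts, did not pass after median scaling, with changes of 0.28 and 0.19.

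**Figure D1:**
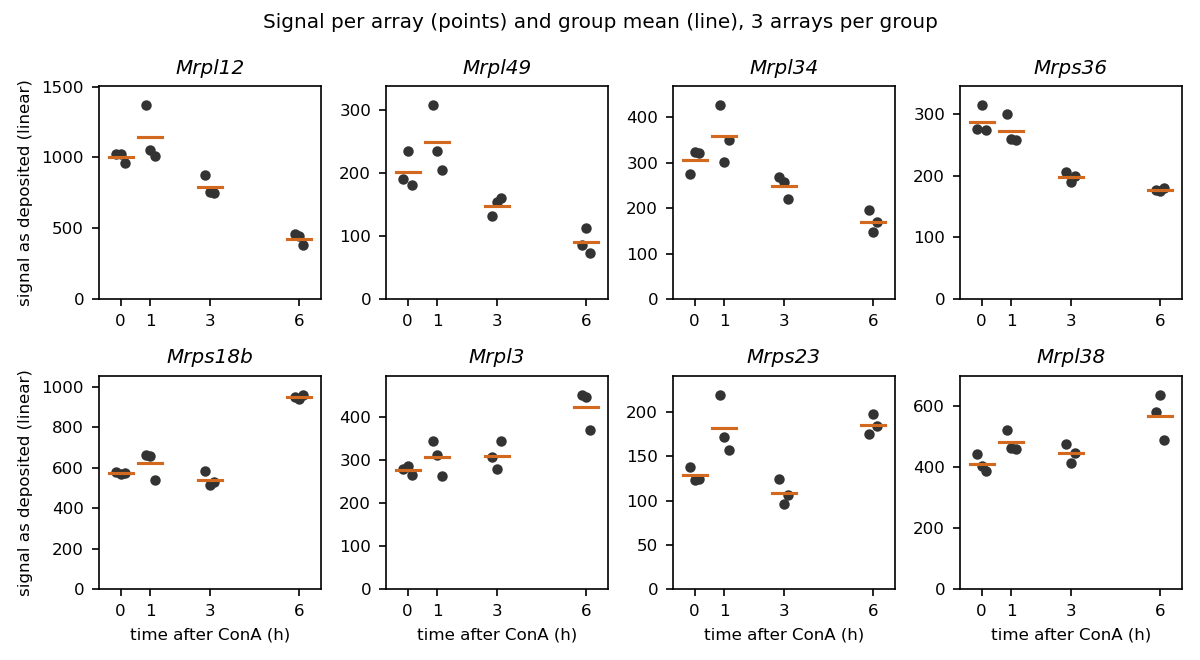
Signal as deposited (linear, from 0) against time after ConA for 4 members that fell at 6 h (upper row) and 4 that rose (lower row), with 1 point per array and a line at the mean of 3 arrays. Mrpl12 ends at 379 to 461 from 961 to 1028 in the controls, and Mrps18b ends at 939 to 959 from 570.3 to 582.

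The start regions of these genes are shown because the members moved in different directions although the same few factors are known to serve many of them. The regions are those of RefSeq on GRCm38.p6, from 250 bases before to 50 bases after the start of the transcript, and 67 of the 76 members had such an entry. Capitals mark matches on either strand to the motifs of nuclear respiratory factor 1 (NRF1, TGCGCATGC), of the ETS factors, as GABP binds it (CCGGAAG), and of YY1 (AAGATGGC), of which the ETS and YY1 motifs can share 3 letters and did so in 0 member regions. The region of Mrps18b (chr17:35916391-35916690, minus strand) held 2 matches to NRF1 and 1 to ETS, and that of Mrpl3 (chr9:105053018-105053317, plus strand) held 1 to ETS. Both genes rose at 6 h.
Mrps18b: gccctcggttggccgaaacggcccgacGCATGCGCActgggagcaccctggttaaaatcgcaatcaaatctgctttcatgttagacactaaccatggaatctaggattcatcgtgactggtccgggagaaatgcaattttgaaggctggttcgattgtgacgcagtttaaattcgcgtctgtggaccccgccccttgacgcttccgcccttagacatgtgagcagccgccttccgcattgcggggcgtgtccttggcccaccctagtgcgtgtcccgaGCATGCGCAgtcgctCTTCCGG
Mrpl3: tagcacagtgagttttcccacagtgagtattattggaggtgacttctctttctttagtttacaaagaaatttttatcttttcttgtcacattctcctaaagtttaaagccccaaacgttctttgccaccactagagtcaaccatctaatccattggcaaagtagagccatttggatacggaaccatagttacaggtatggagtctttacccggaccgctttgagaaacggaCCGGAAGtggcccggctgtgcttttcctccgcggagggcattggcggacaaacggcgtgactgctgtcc
The region of Mrpl12 (chr11:120484387-120484686, plus strand) held none of the 3 motifs, and that of Mrpl49 (chr19:6057706-6058005, minus strand) held 1 match to YY1. Both genes had the deepest falls. Members not shown differed from this: the region of Mrpl34, which fell, held 1 match to ETS, and 1 region of Mrps16, which fell, held 2. That of Mrpl16, which rose, held none of the 3 motifs.
Mrpl12: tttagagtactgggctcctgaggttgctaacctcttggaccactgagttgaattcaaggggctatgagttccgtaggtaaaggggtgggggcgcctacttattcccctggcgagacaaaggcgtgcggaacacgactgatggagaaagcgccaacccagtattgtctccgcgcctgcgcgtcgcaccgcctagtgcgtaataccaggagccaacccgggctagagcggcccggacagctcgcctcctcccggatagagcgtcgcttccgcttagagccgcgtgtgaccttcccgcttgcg
Mrpl49: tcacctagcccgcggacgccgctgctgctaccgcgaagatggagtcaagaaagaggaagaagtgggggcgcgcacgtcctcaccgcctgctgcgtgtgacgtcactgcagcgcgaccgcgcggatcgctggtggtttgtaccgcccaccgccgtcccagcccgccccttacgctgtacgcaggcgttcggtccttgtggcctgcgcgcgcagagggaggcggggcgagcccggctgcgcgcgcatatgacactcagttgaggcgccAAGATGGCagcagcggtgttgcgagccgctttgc

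Among the 67 members with a start region, 25 held the ETS motif, 12 the YY1 motif and 6 the NRF1 motif, and 36 held at least 1 of them (53.7%). The corresponding shares among the 14452 measured genes with a region were 15.0% for ETS, 4.07% for YY1, 2.66% for NRF1 and 20.1% for any, against 37.3%, 17.9% and 8.96% of the members for each motif. Of the 5 genes higher at 6 h that had a region, 4 held the ETS motif, 2 the NRF1 motif and 0 the YY1 motif. Of the 16 lower genes with a region, 5 held ETS, 0 NRF1 and 4 YY1, and of the 46 not called, 16 held ETS, 4 NRF1 and 8 YY1. The classes are those of the calls as deposited. Mrpl22, whose region held 1 match each to NRF1 and ETS, was lower at 6 h after both rescalings. Mrpl17, with 1 match to each of the same motifs, was no longer called after median scaling. These are counts of letters in a window, over few genes, and no difference between the classes was tested.

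At 3 h against 0 h, 13 members were lower and 0 higher as deposited. The 13 falls make 17.1% of the members, beside 14.7% of all genes and 24% of the brighter genes that were lower, so the share lay near the former and below the latter. For the 0 rises, 5.15% of all genes and 8.18% of the brighter genes were higher, and at an unadjusted p under 0.05 there were 0 higher and 36 lower members, beside 7.49% and 25.5% of all genes. At that threshold median scaling gave 5 higher and 7 lower (12.9% and 13.6% of all genes), and quantile normalization 3 higher and 15 lower (11.9% and 16.7%). The members lay close together: their median change was -0.30, and the central 50% of them lay between -0.37 and -0.23, a range of 0.13, against 0.62 for all genes and 0.50 for the brighter genes. All 3 arrays at 3 h were below all 3 controls for 55 of the 76 members, and the same held for 28.7% of all genes, while they were above for 1 member and 8.3% of all genes. After median scaling they were below for 8 members and above for 7 (15.1% and 14.3% of all genes), and after quantile normalization below for 27 and above for 4 (18.5% and 12.7%). Shares of the brighter genes are not given for this overlap of arrays, so the shares of all genes can overstate an excess of members below. With median scaling 1 member was lower and 3 were higher (6.89% and 8.36% of all genes), and with quantile normalization 7 were lower and 1 was higher (9.04% and 7.97%). The members higher at 3 h were Mrpl38 (0.36), Mrpl16 (0.34) and Mrps34 (0.31) with median scaling and Mrpl3 (0.33) with quantile normalization.

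The only member lower at 3 h under all 3 scalings was Mrps27, a small subunit protein with repeats of the kind that bind RNA. Its signals were 141, 152 and 154 in the controls, 138, 135 and 105 after 1 h, 81.2, 90.7 and 95.5 after 3 h, and 112, 128 and 95.0 after 6 h. The 3 h arrays were below every array of the earlier groups, and 1 array at 6 h fell among them. The change at 3 h was -0.74 (SE 0.14, adjusted p = 0.0061) as deposited, -0.50 after median scaling and -0.53 after quantile normalization.

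Mrpl47, the counterpart of bacterial L29 at the tunnel exit, gave 342, 302 and 342 in the controls, 327, 306 and 270.4 after 1 h, 212, 214 and 224 after 3 h, and 325, 370.2 and 314 after 6 h. The 3 h group stood apart from all others, and the 6 h group overlapped the controls. The change at 3 h was -0.60 (SE 0.10, adjusted p = 0.0037), but -0.35 after median scaling, which did not pass (adjusted p = 0.062). The 2 dimmer probe sets of Mrpl47 had changes of 0.83 and 0.39 at 3 h, not past the test. Mrps17, a small subunit protein with a bacterial counterpart, had 729, 757 and 694 at 0 h and 464, 539.8 and 541 at 3 h without overlap, a change of -0.50 (SE 0.10, adjusted p = 0.0064). The other falls of the 8 largest were those of Mrps36 (-0.54), Mrpl40 (-0.53), Mrpl55 (-0.52), Mrpl18 (-0.50) and Mrpl15 (-0.48).

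**Figure D2:**
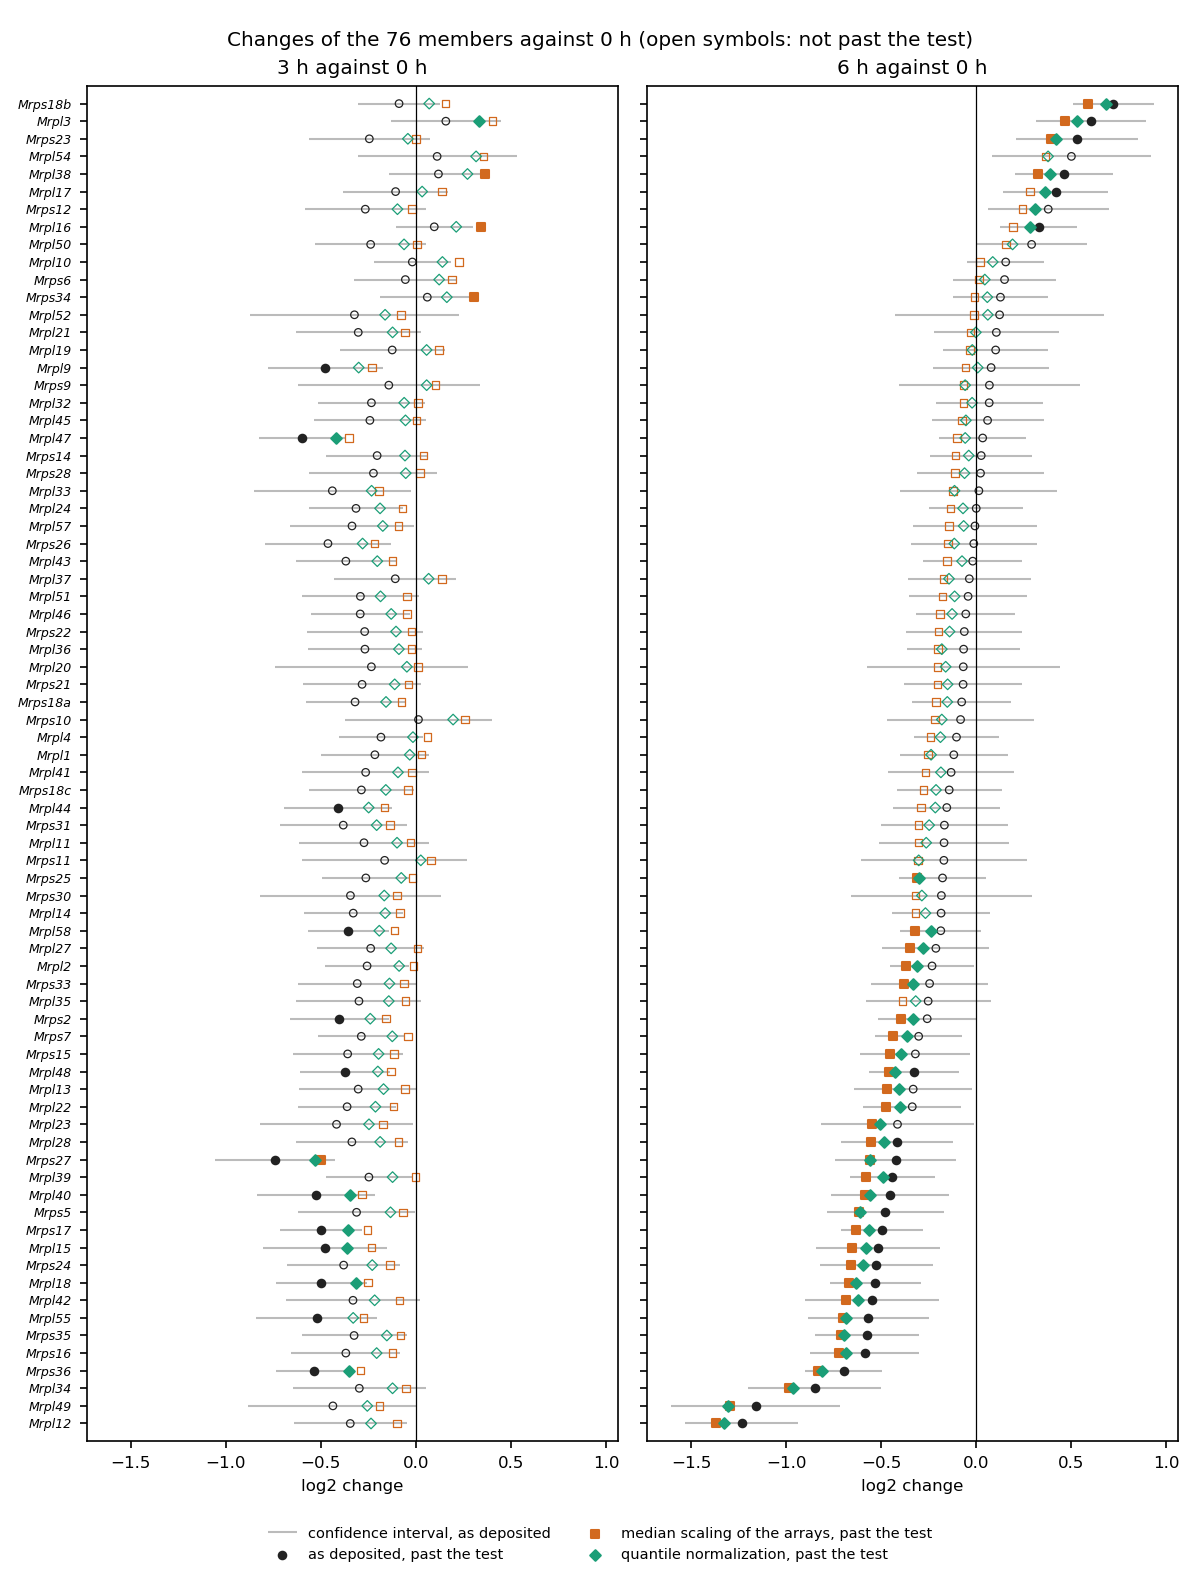
Log2 change of each of the 76 members against 0 h at 3 h (left) and 6 h (right), ordered by the change at 6 h, with the 95% interval of the fit as deposited and the values under 3 scalings (filled where past the test). At 3 h the points of 1 scaling lie in a narrow band that moves with the scaling, whereas at 6 h they spread from -1.24 (Mrpl12) to 0.72 (Mrps18b) as deposited.

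At 1 h against 0 h, 0 members were higher and 0 lower by limma, as deposited and after either rescaling, where 1.5% of all genes were higher and 0.148% lower as deposited (2.33% and 0.132% of the brighter genes), 1.32% and 0.236% after median scaling, and 1.29% and 0.379% after quantile normalization. At an unadjusted p under 0.05 there were 2 members as deposited, both higher, Mrps23 (0.49, adjusted p = 0.18) and Mrps34, a small subunit protein bacteria lack (0.36, adjusted p = 0.21). As deposited 8.68% of all genes were higher and 2.47% lower at that threshold. Median scaling gave 2 members higher and 2 lower (6.43% and 4.45% of all genes), and quantile normalization 2 higher and 5 lower (5.74% and 5.95%). The signals of Mrps34 were 907, 903 and 907 at 0 h and 1278, 1183 and 1043 at 1 h, which did not overlap. The median change of the members was 0.11, beside 0.08 for all genes and 0.10 for the brighter genes, and 65 of 76 changes were positive. ConA 1 h replicate 1 was the brightest array of its group, and without it the median change was 0.007. After quantile normalization the median change was -0.021.

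Over the 3 later groups together, 36 of the 76 members passed limma's F test for any change against 0 h, as did 38% of all genes. After median scaling 30 members passed (32.7% of all genes), and after quantile normalization 34 (33.8%). By their calls at 3 h and 6 h as deposited, 8 members were lower at both times (7.19% of all genes), 5 only at 3 h (7.04%) and 10 only at 6 h (5.47%), while 6 were higher only at 6 h (10.3%) and 47 passed at neither time (64.4%). After median scaling 1 was lower at both times (4.72%), 0 only at 3 h (2.11%) and 28 only at 6 h (13.1%). After quantile normalization these counts were 6 (6.24%), 1 (2.64%) and 23 (11.4%). Under none of the 3 scalings was a member called in opposite directions at 3 h and 6 h.

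Between 1 h and 3 h, 33 members were lower and 0 higher as deposited (19.9% and 3.08% of all genes, 33.7% and 4.8% of the brighter genes). The fall was largely absent after rescaling: after median scaling 0 members were lower and 0 higher (4.97% and 5.51% of all genes), and after quantile normalization 2 were lower and 0 higher (5.41% and 5.54%). The latter 2 were Mrps23 (-0.39) and Mrpl18 (-0.26). At an unadjusted p under 0.05, 58 were lower and 0 higher as deposited (32.1% and 4.57% of all genes), 5 lower and 4 higher with median scaling (11.9% and 11.2%), and 15 lower and 2 higher with quantile normalization (13.2% and 10.7%). The largest fall as deposited was that of Mrps26, a small subunit protein bacteria lack, from 304, 279 and 290.2 at 1 h to 152, 221 and 151 at 3 h. Its change was -0.76 (SE 0.15, adjusted p = 0.0079), but -0.42 after median scaling (adjusted p = 0.15), and its far dimmer second probe set, of higher variance, was at 0.059 (SE 0.63), not past the test. Mrps23, Mrpl49, Mrpl33 and Mrpl55 followed, with -0.74, -0.73, -0.64 and -0.62.

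Between 3 h and 6 h the direction of the members depended on the scaling. As deposited 8 were higher and 3 lower (18.8% and 3.83% of all genes, 31.5% and 6.6% of the brighter genes), and a fit of the 9096 brighter genes alone gave 14 higher and 3 lower (39% and 9.11% of the genes in it). After median scaling 1 was higher and 20 lower (6.61% and 12.5% of all genes), and after quantile normalization 5 were higher and 11 lower (9.32% and 10.2%). The 4 members that passed in the same direction under all 3 scalings were Mrps18b, which rose (0.81, SE 0.09, adjusted p = 0.0009), and Mrpl12 (-0.89), Mrpl49 (-0.72) and Mrpl34 (-0.55), which fell. The dimmer second probe set of Mrpl34, which had the higher variance, was at 0.88 (SE 0.67) and did not pass. Mrps23 (0.78), Mrps12, the counterpart of bacterial S12 at the decoding site (0.65), Mrpl47 (0.63) and Mrpl9 (0.55), a large subunit protein, were higher as deposited and after quantile normalization, but not after median scaling.

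**Figure D3:**
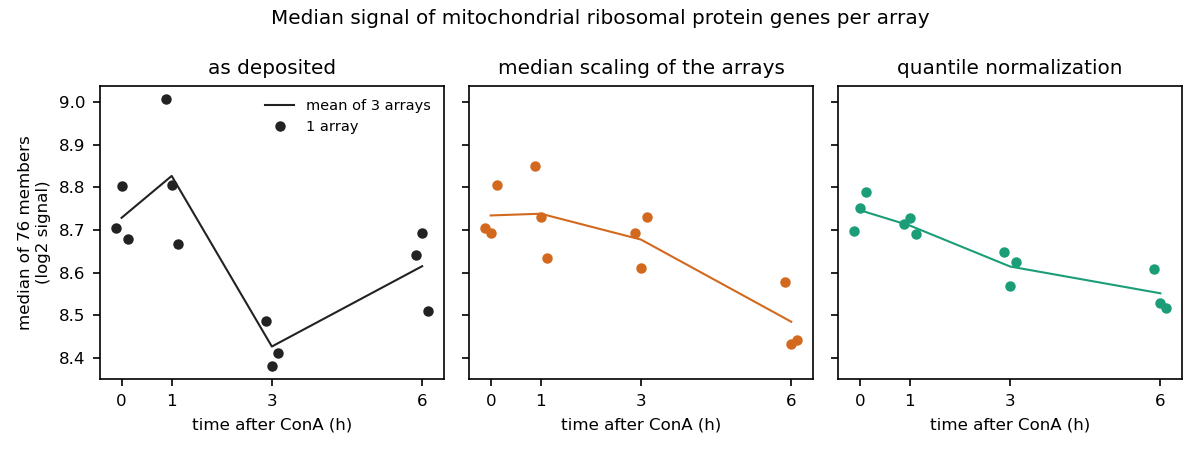
Median log2 signal of the 76 members on each array (points) and the mean of 3 arrays (line) against time after ConA, under 3 scalings on 1 axis. As deposited the 3 h arrays are the lowest, at 8.38 to 8.49, whereas after median scaling (8.43 to 8.58) and quantile normalization (8.52 to 8.61) the 6 h arrays reach the lowest values, in the latter with the 3 h arrays (8.57 to 8.65) overlapping them.

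The members were also set against their own array. The difference between the median of the members and that of all genes on an array is left unchanged by median scaling, and it was 3.52 to 3.63 at 0 h, 3.52 to 3.64 at 1 h, 3.51 to 3.64 at 3 h and 3.36 to 3.45 at 6 h on the log2 scale. The 6 h arrays were thus below all others, and the groups at 0 h, 1 h and 3 h overlapped. After quantile normalization the 6 h arrays (3.44 to 3.51) were below those at 0 h and 1 h, but not below ConA 3 h replicate 2 (3.41). The median change of the members less that of all genes was -0.15 at 6 h as deposited, -0.21 after median scaling and -0.17 after quantile normalization. At 3 h it was -0.08, -0.05 and -0.09.

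**Figure D4:**
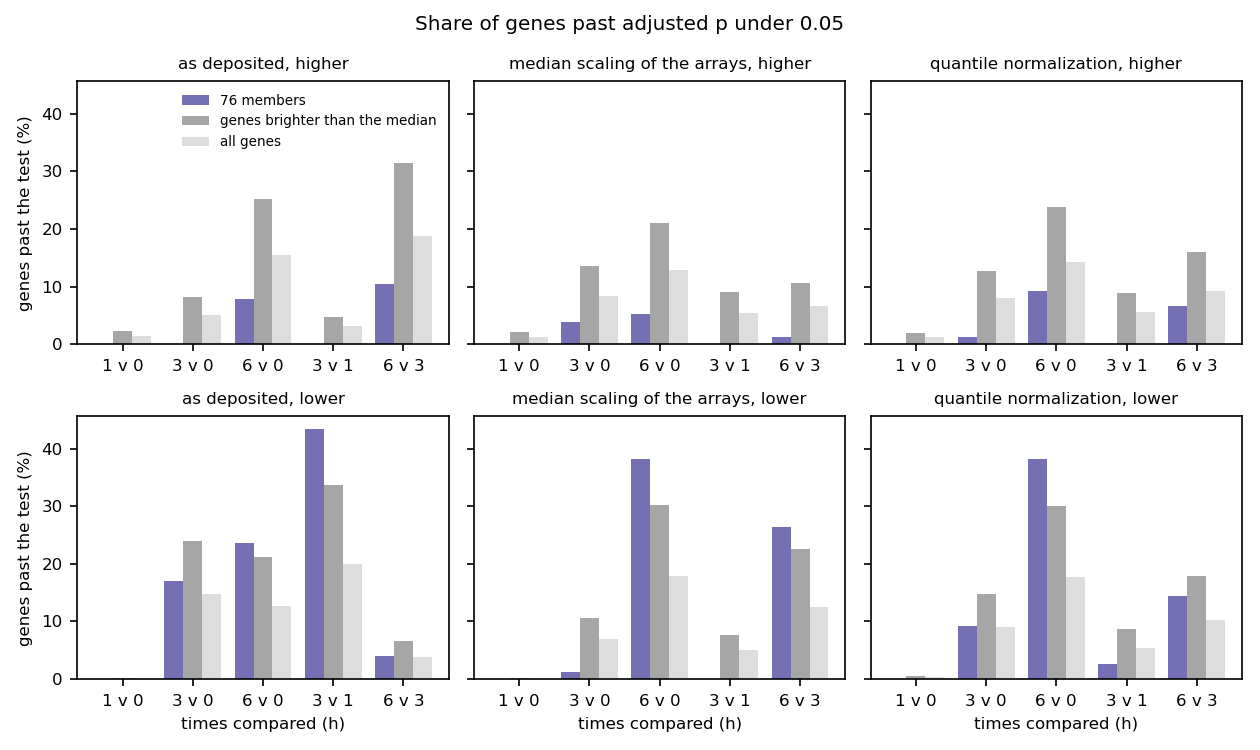
Share of genes past the test (percent, from 0) that were higher (upper row) or lower (lower row) in 5 comparisons of times, for the 76 members, the 9096 genes brighter than the median and all 18193 genes, under 3 scalings. The members' share lower at 6 h against 0 h is 23.7% as deposited and 38.2% after either rescaling, and their share higher stays below that of both backgrounds in the comparisons shown.

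Falls and rises occurred among the genes named for either subunit. At 6 h 11 of 47 Mrpl genes were lower and 4 higher, with a median change of -0.10. Of the 29 Mrps genes, Mrps36 included, 7 were lower and 2 higher, with a median of -0.17. Of the 44 genes whose number is that of a bacterial protein (up to 36 in the large and 21 in the small subunit, and Mrps24), 9 were lower and 4 higher, and of the 32 others 9 were lower and 2 higher. The classes follow the number alone, so a gene such as Mrpl47 stands among the latter although it has a bacterial counterpart. The difference between these classes was not tested. Where a gene had several probe sets, the others had the sign of the one read in 64 of 80 cases at 3 h and 57 of 80 at 6 h, and no gene had probe sets called in opposite directions.

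The other genes of the pathway differed among themselves at 6 h. Of the 4 measured ribosomal subunits that go under other names (Dap3, Chchd1, Ptcd3 and Gadd45gip1), 0 were called at 3 h or 6 h, with a median of -0.09 at 6 h. Of 12 translation factors 4 were lower at 3 h (14.7% of all genes) and 0 were called at 6 h (15.4% of all genes higher and 12.7% lower). The 4 were Mtif3 (-0.77) and Mtif2 (-0.50), which start translation, Guf1 (-0.64), an elongation factor, and Mtfmt (-0.59), which formylates the initiator tRNA. For the 12 factors median scaling gave 0 lower at 3 h and 6 lower at 6 h (6.89% and 17.8% of all genes), so the time of their fall depended on the scaling.

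Of 21 genes for charging mitochondrial tRNAs, 3 were higher and 4 lower at 6 h, beside 15.4% and 12.7% of all genes. The same shares of all genes stand beside the counts of the lists that follow. Kars, whose gene serves cytosol and mitochondria alike, rose (1.15, SE 0.11, adjusted p = 8.3e-05), while Gatc (-0.76), part of the enzyme that amidates glutamyl-tRNA, and Fars2 (-0.66), the phenylalanyl-tRNA synthetase, fell. Of 26 assembly and ribosomal RNA modification factors, 5 were higher and 4 lower at 6 h, the largest being Ddx28, an RNA helicase (1.61, SE 0.24, adjusted p = 0.001), and Mettl15, a methyltransferase for the small subunit RNA (-1.32, SE 0.14, adjusted p = 0.00015). Mrm1, a methyltransferase for the large subunit RNA, was lower at 3 h (-1.41, SE 0.34, adjusted p = 0.018). Of 18 genes for mitochondrial DNA and RNA, 2 were higher and 4 lower at 6 h, with Polg2, the accessory subunit of the DNA polymerase, at -2.04 (SE 0.25, adjusted p = 0.00029) and Pnpt1, an exoribonuclease, at 1.61 (SE 0.16, adjusted p = 8.9e-05). Twnk, the helicase of mitochondrial DNA, was at -1.31 at 3 h (SE 0.12, adjusted p = 0.00015).

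The widest changes were among 12 regulators of mitochondrial genes, of which 6 were higher and 3 lower at 6 h (15.4% and 12.7% of all genes). The coactivators Ppargc1a (-3.27, SE 0.28, adjusted p = 3.8e-05) and Ppargc1b (-3.29, SE 0.23, adjusted p = 1.6e-05) fell at 6 h, and Ppargc1b was at -3.93 at 3 h (SE 0.23, adjusted p = 8.2e-06), while the related Pprc1 rose (2.06, SE 0.15, adjusted p = 1.7e-05). Esrra, a nuclear receptor that works with these coactivators, fell (-1.68), and Nrf1, whose protein binds the NRF1 motif, rose (1.08, SE 0.24, adjusted p = 0.0073). Of the members holding that motif, 2 were higher, 0 lower and 4 not called at 6 h as deposited. Among them Mrpl22 was lower after both rescalings, and Mrpl17 was no longer higher after median scaling. A link to Nrf1 was not tested. No member changed by as much as Ppargc1a, Ppargc1b or Pprc1.

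Nuclear genes of the respiratory chain and genes of the cytosolic ribosome gave reference points. Of 81 nuclear genes for subunits of the respiratory chain and ATP synthase, 13 were lower and 0 higher at 6 h (16.0% and 0%, beside 12.7% and 15.4% of all genes), with a median of -0.20. As deposited, 21.2% of the brighter genes were lower at 6 h, more than the 16.0% of this list. After median scaling 47 were lower (58.0%, beside 17.8% of all genes) and after quantile normalization 46 (56.8%, beside 17.7%). Bright probe sets pass the test more often, so the shares of all genes can overstate the excess after rescaling. The largest falls were those of Sdhd, the membrane anchor of complex II (-0.72), and Ndufb10, a complex I subunit (-0.68). Of 47 cytosolic ribosomal proteins 3 were higher and 0 lower at 6 h, with a median of 0.15 as deposited and 0.01 after median scaling, and Rpl12 had the largest rise (2.14). The central 50% of the changes at 6 h spanned 0.37 for the members, 0.28 for the respiratory chain and 0.12 for the cytosolic ribosomal proteins, against 0.87 for all genes.

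**Figure D5:**
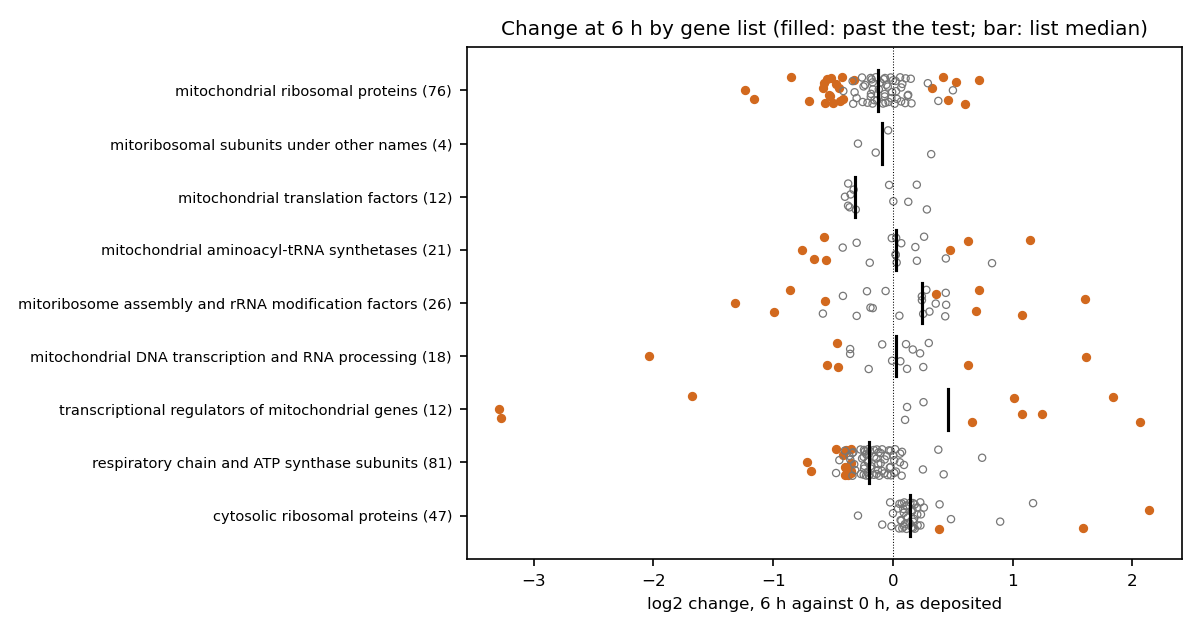
Log2 change at 6 h against 0 h as deposited for each measured gene of 9 lists (number in brackets), filled where past the test, with a bar at the list median. The members run from -1.24 to 0.72 around a median of -0.13, the respiratory chain lies around -0.20, and the regulators reach -3.29 and 2.06.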

How the data were processed

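Liver RNA of 12 mice was measured on 12 Affymetrix Mouse 430 2.0 arrays. The authors deposited 1 table of linear intensity for 45101 probe sets. The labels name MAS5 version 5.0 for it, while the methods name RMA, and the values were not equal in distribution over arrays, as RMA would make them. Genes were named from the platform annotation with symbols updated by Entrez ID, and 64 control probe sets were left out. A floor of 3.04, which is the 20th percentile over the whole table, replaced lower intensities before log2. Per gene the probe set of highest mean was kept. Fits used limma 3.58.1 in R 4.3.3 with 4 group means over 12 arrays and moderated variances, adjusted by Benjamini-Hochberg over 18193 genes at 0.05, and were tested on simulated data. The number of arrays limits the precision. Alternatives were median scaling, quantile normalization, log2(value + 1), the brighter genes, an intensity trend, a replicate block, only the groups compared, the probe set of highest variance and leaving out each array.

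The members and lists were chosen with earlier results of these data known. Genes named are the members with the largest called changes without overlap between groups (8 per direction against 0 h, 5 between later times), those called in 1 direction under all 3 scalings, any called in opposite directions between times, scalings or probe sets, any at the floor, the brightest, and the 3 largest called changes of each list; other names were chosen after their values were seen. Replicate numbers were not taken to pair arrays. Residuals of the 18 pairs with equal numbers correlated at -0.005 to 0.041 and those of the 36 others at -0.055 to 0.034. However, 10 of 12 arrays correlated best with an array of their own number, so counts with the number as a block are given below. Start regions were from RefSeq, and the arrays' own probe sequences were not used here.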

Additional observations from a re-analysis of the deposited data

How the results depend on the processing

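The 24 members called at 6 h against 0 h as deposited had the same direction under both rescalings, and of these Mrpl12, Mrpl49, Mrps36, Mrps16, Mrps35, Mrpl18, Mrpl39, Mrps17 and Mrps18b passed the test in every setting run. Members lower at 3 h against 0 h numbered 13 as deposited, 1 with median scaling, 7 with quantile normalization, 6 with log2(value + 1), 20 with an intensity trend and 8 with the probe set of highest variance, and 3 and 1 were higher with the 2 rescalings. At 6 h against 0 h, 29 were lower with either rescaling and 3 higher with the probe set of highest variance. Members lower at 3 h against 1 h fell from 33 to 0 and 2 with the rescalings and to 11 in a fit of only the groups compared. At 6 h against 3 h, 1 and 5 were higher and 20 and 11 lower with the rescalings, 14 were higher among the brighter genes, 5 were higher with the probe set of highest variance, and 1 was lower with only the groups compared. The F test passed 23 members with the probe set of highest variance. For settings other than the 2 rescalings and the brighter genes, the shares of all genes are not given. The same holds for the fits without 1 array and with a replicate block below. Whether these counts of members moved with those of all genes was not tested.

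The median change of the members was -0.021 at 1 h with quantile normalization, -0.054 and -0.14 at 3 h with median scaling and quantile normalization, -0.26 at 6 h with median scaling (-0.21 less all genes), -0.065 and -0.10 at 3 h against 1 h, and -0.23 and -0.10 at 6 h against 3 h (-0.18 less all genes with median scaling). The probe set of highest variance turned Mrpl47 at 3 h (0.39), Mrpl17 (-0.18) and Mrpl42 (0.15) at 6 h, Mrps26 at 3 h against 1 h (0.059) and Mrpl34 at 6 h against 3 h (0.88). The cause was not tested.

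Leaving out 1 array gave 5 to 23 members lower at 3 h (5 without control replicate 2 or array 3 of the 3 h group, 6 and 8 without arrays 2 and 1 of that group, 7 without control replicate 1 and 23 without array 1 of the 1 h group). At 6 h it gave 3 to 8 higher (3 without control replicate 2 or array 2 or 3 of the 6 h group) and 11 to 21 lower (11 without control replicate 3 or array 3 of the 6 h group). It gave 13 to 43 lower at 3 h against 1 h (14 without array 1 of the 1 h group or array 3 of the 3 h group, 13 without array 2 of the 3 h group), and at 6 h against 3 h 6 to 13 higher (13 without array 1 of the 1 h group) and 1 to 3 lower (1 without array 2 of the 3 h group or array 3 of the 6 h group). The F test passed 22 to 42 (22 without array 3 of the 3 h group). The median at 3 h against 1 h ran from -0.47 to -0.29 (-0.29 without array 1 of the 1 h group). Mrps27 at 6 h, with adjusted p = 0.0497, failed the test without any 1 of 10 arrays.

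The residual correlations of arrays with equal replicate numbers were small and overlapped those of the others. Yet 10 of 12 arrays correlated best with an array of their own number. This is a hint of a weak link by number, which was not tested. With the replicate number as a block, 12 members were lower at 3 h, and 17 were lower and 6 higher at 6 h. At 3 h against 1 h 36 were lower. At 6 h against 3 h 9 were higher and 3 lower, and 37 passed the F test. With 3 arrays per group, small changes of single members cannot be resolved.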
